A study of Mus musculus with 6 samples.

Results

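The ribosome biogenesis and Myc-linked genes described here are a list of 46 genes, chosen by symbol with earlier results of these data known. They cover nucleolar scaffold proteins, the protein parts of small nucleolar ribonucleoproteins (snoRNPs), and RNA polymerase I and its factors. Also listed are processing factors of the small and the large ribosomal subunit, and the transcription factor gene Myc with polyamine and growth genes. All 46 were among the 14788 gene symbols of the count table, and all 46 passed the filter on low counts that left 11504 genes for testing. RNA was sequenced from type-2 conventional dendritic cells (cDC2s), which present antigen chiefly to helper T cells, taken from the spleens of C57BL/6 mice. Of 6 libraries, 3 came from Arhgef1-/- cells (KO) and 3 from wild-type cells (WT). The Arhgef1 protein loads the GTPase RhoA with GTP when receptors signal through G12 or G13. The sources used here do not give the ages of the mice, the deleted part of the gene, the sort, or whether each library came from its own animal, so the p-values rest on a spread between libraries that may be technical.

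Ribosomes are built in the nucleolus. RNA polymerase I transcribes the precursor of the large ribosomal RNAs, snoRNPs guide its methylation (box C/D) or pseudouridylation (box H/ACA), and processing complexes cut, fold and export the pre-ribosomal particles. Myc, with its partner Max, binds E-box DNA and raises transcription of many of these genes and of the enzymes of polyamine synthesis, and the whole pathway is known to be more active in growing and dividing cells.

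The libraries held 8408325 to 11714365 counts. Arhgef1 stood at 115, 128 and 144 CPM (counts scaled to a library size of 1e+06) in KO replicates 1, 2 and 3, against 287, 317 and 246 CPM in WT replicates 1, 2 and 3 (log2 fold change -1.13 ± 0.11, SE; edgeR adjusted p = 6.96e-06). The cDC2 and dendritic cell markers Itgax, H2-Ab1, Sirpa, Flt3, Zbtb46, Irf4, Clec4a4, Cd4 and Esam were detected in all libraries. Of these 9 genes 4 were lower in KO (H2-Ab1, Sirpa, Clec4a4 and Cd4), against 4.58% of all tested genes. The median log2 fold change of the 9 was -0.30, and 1 was above 0. In 7 of the 9 every KO library lay below every WT library, against 13.5% of all tested genes. All WT libraries were sequenced in lane 1 of a run and all KO libraries in lane 2 of another, per the labels, so lane and genotype cannot be told apart. In bulk samples, more cells of a type and more RNA per cell cannot be told apart either.

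Of the 46 genes, 10 were higher in KO and 0 were lower at an adjusted p under 0.05 (edgeR quasi-likelihood test, adjusted over all genes tested), against 5.09% higher and 4.58% lower over all tested genes. At an unadjusted p under 0.05 there were 20 of the 46, all with a log2 fold change above 0. The share over all tested genes, 22.3%, counts both directions. The 10 were Dkc1, Pa2g4, Ifrd2, Myc, Nop56, Mybbp1a, Nop58, Gnl3, Heatr1 and Odc1. The log2 fold change was above 0 in 44 of the 46, against 50.1% of all tested genes, and its median was 0.36, against 0.00 over all tested genes. In 19 of the 46 every KO library lay above every WT library, and in 0 every KO library lay below, against 13.7% and 13.5% of all tested genes. The list was chosen with earlier results of these data known, so these shares describe it and do not test it. The count of 10 dropped to 4 without KO replicate 2 or without WT replicate 1 (Dkc1, Pa2g4, Myc and Ifrd2 in both cases) and to 4 without WT replicate 2 (Dkc1, Pa2g4, Nop56 and Ifrd2). The median stayed between 0.27 and 0.39 when any 1 library was left out.

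**Figure D1:**
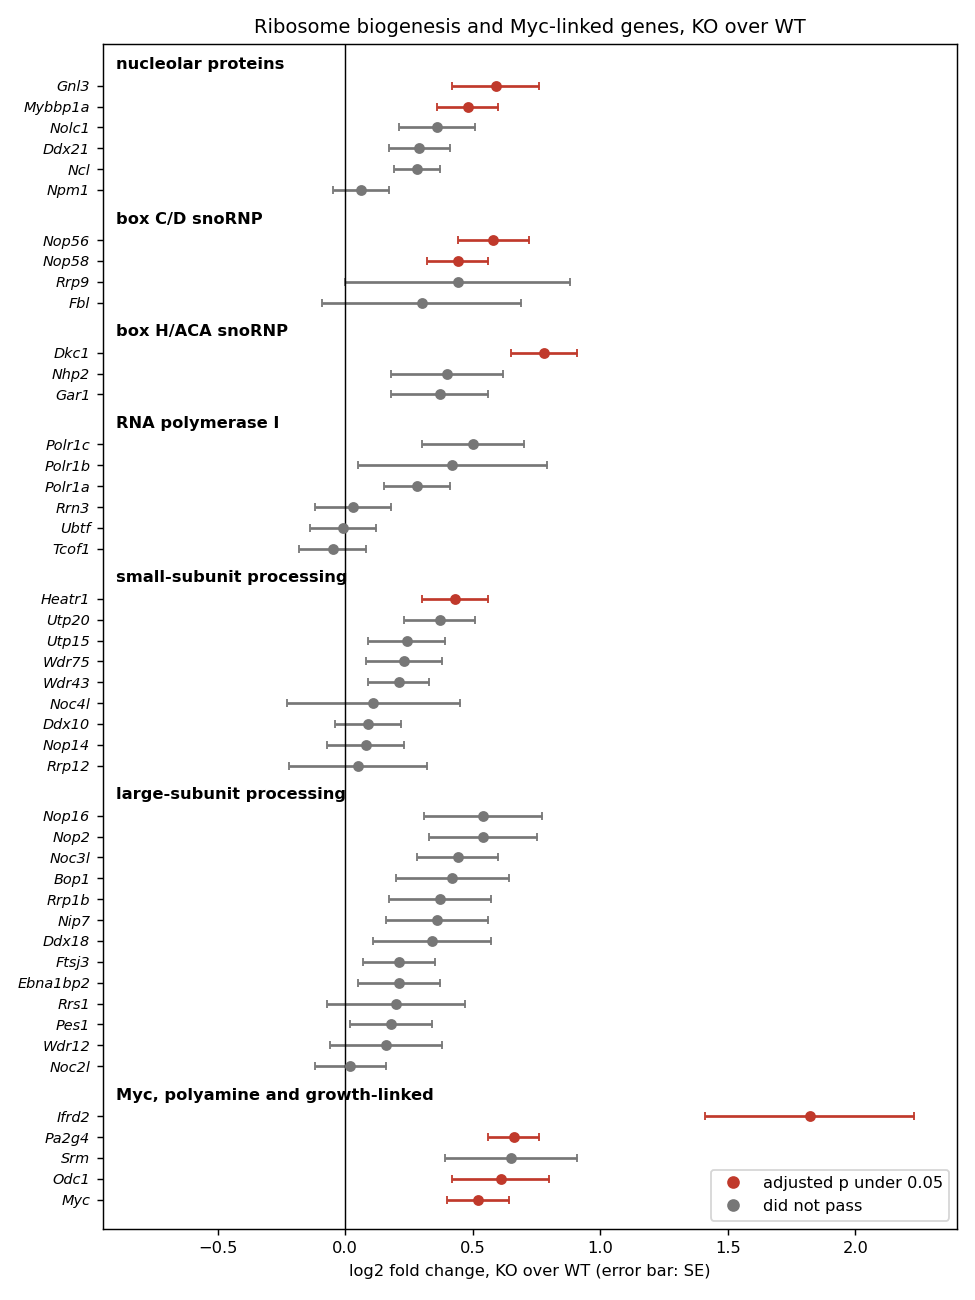
Log2 fold change of each of the 46 genes, KO over WT, on the horizontal axis (points; bars are SE, n = 3 libraries per genotype), grouped by role, with red for an adjusted p under 0.05. Points lie from -0.05 (Tcof1) to 1.82 (Ifrd2), and the 10 red points include 4 of the 5 genes of the Myc, polyamine and growth-linked group and 0 of the 13 large-subunit processing genes.

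**Figure D2:**
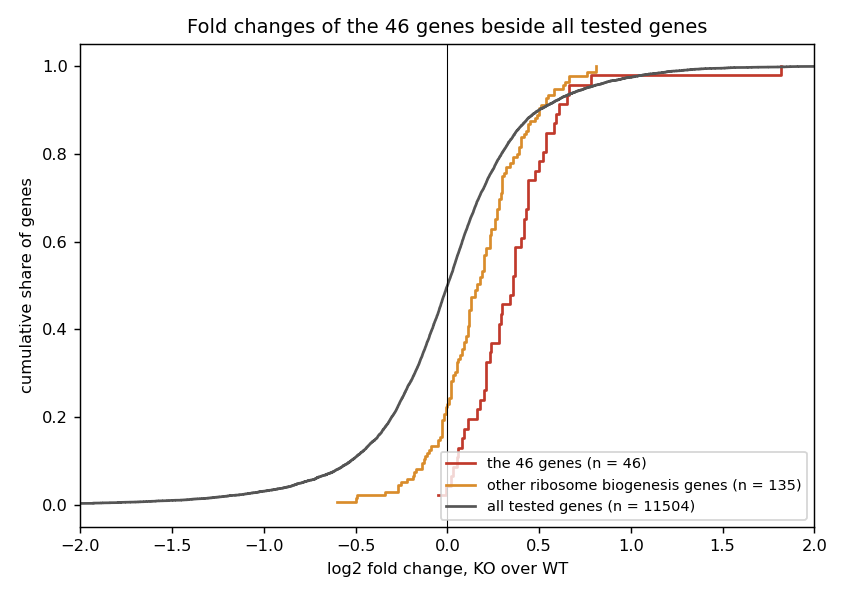
Cumulative share of genes (vertical axis) at or below each log2 fold change, KO over WT (horizontal axis, drawn from -2 to 2), for the 46 genes, for 135 other ribosome biogenesis genes and for all 11504 tested genes. The curve of the 46 has its median at 0.36, that of the other ribosome biogenesis genes at 0.16 and that of all tested genes at 0.00.

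Promoter windows were read for motifs because Myc binds E-boxes. A RefSeq window (GRCm38.p6) from 250 bases before to 50 bases after a gene's start was matched for 38 of the 46 genes, the others being Tcof1, Rrs1, Srm, Fbl, Npm1, Rrp12, Bop1 and Myc. The E-box CACGTG, which reads the same on both strands, was in a window of 6 of the 38 (Mybbp1a, Nop2, Pes1, Rrn3, Utp20 and Wdr43), or 15.8%, against 11.9% of the 8257 tested genes with a window and 7.15% of all 32851 windows. The variant CACGCG, searched on both strands and chosen after the first motif was counted, was in 14 of the 38, or 36.8%, against 19.9% of the same tested genes and 9.27% of all windows. A gene counted if any of its windows held the motif, and the 38 genes had 47 windows. Shares of genes are thus not comparable with shares of windows. Among the 9 matched genes that were higher in KO, 1 held CACGTG (Mybbp1a) and 3 held CACGCG (Mybbp1a, Ifrd2 and Odc1). The windows of these 3 genes are shown with that of Rrn3, which held 2 copies of CACGTG and did not pass the test, each 5′ to 3′ on the plus strand with capitals for both motifs on either strand. They lie at chr11:72441077-72441376 (Mybbp1a), chr9:107587468-107587767 (Ifrd2), chr12:17544623-17544922 (Odc1) and chr16:13780449-13780748 (Rrn3).
Mybbp1a: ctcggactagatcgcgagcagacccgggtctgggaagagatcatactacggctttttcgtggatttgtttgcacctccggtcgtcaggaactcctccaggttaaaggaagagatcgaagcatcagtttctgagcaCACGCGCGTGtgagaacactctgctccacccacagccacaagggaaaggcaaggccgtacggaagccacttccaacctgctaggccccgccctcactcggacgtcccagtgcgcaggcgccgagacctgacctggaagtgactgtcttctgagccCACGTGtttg
Ifrd2: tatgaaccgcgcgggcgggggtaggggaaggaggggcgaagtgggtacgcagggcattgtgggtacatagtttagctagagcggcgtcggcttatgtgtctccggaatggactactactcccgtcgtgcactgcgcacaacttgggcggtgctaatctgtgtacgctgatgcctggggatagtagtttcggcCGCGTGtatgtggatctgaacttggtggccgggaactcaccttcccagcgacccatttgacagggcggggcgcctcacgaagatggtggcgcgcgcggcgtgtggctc
Odc1: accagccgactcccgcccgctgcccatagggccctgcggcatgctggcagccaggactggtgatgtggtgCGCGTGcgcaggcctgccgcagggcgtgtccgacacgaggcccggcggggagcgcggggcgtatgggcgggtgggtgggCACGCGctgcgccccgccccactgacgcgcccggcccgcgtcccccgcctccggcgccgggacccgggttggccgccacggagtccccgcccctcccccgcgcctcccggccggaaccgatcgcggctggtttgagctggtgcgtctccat
Rrn3: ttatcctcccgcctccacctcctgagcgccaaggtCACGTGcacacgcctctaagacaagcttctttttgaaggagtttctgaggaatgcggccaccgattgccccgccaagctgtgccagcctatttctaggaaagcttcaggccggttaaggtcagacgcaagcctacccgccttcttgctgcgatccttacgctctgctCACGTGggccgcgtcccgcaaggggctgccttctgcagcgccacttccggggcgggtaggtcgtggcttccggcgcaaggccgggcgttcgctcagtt
Counted from the start site as base 1, the Mybbp1a E-box begins at base 41, inside the transcript. Its CACGCG and the reverse complement begin at -115 and -111 and overlap each other, but not the E-box. In Ifrd2 the variant begins at -58, in Odc1 at -180 and -101, and the E-boxes of Rrn3 begin at -215 and -48. These matches are letters in a window, and binding was not measured.

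The Myc, polyamine and growth-linked group was the one in which most genes passed: 4 of 5 were higher in KO, against 5.09% of all tested genes. The median log2 fold change was 0.65, and in all 5 every KO library lay above every WT library, against 13.7% of all tested genes. The count of 4 dropped to 2 without WT replicate 2 and to 3 without any other single library. It was also 3 with limma-voom, upper-quartile factors, no filter or a block for the replicate number. Myc itself (chromosome 15, positions 61985391 to 61990374, mm10, plus strand) had 95.8, 106 and 98.5 CPM in KO replicates 1, 2 and 3, against 72.0, 63.3 and 74.9 CPM in WT replicates 1, 2 and 3. The gap between the lowest KO and the highest WT library was wider than the range within either genotype. Its log2 fold change was 0.52 ± 0.12 (SE; edgeR adjusted p = 0.00943), a call that leaving out WT replicate 2 removed (0.45). Pa2g4 (chromosome 10, positions 128557766 to 128565987, minus strand), which encodes the ErbB3-binding protein EBP1, a growth regulator found in nucleoli, had 182, 226 and 215 CPM in KO libraries against 124, 131 and 140 CPM in WT libraries. The genotypes did not overlap, the log2 fold change was 0.66 ± 0.10 (edgeR adjusted p = 4.73e-04), and Pa2g4 passed under all 14 alternatives.

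Polyamines are small cations that growing cells make from ornithine. Odc1, the gene of ornithine decarboxylase, which catalyses the first and rate-limiting step, had 36.3, 31.3 and 26.1 CPM in KO libraries against 21.7, 20.4 and 19.3 CPM in WT libraries. All KO libraries were above all WT libraries, and KO replicate 1 was the highest. The log2 fold change was 0.61 ± 0.19 (edgeR adjusted p = 0.0492), and the call was lost without KO replicate 1 (0.49), KO replicate 2 (0.60), WT replicate 1 (0.65), WT replicate 2 (0.60) or WT replicate 3 (0.57). Srm, the spermidine synthase gene, had 12.6, 19.5 and 13.9 CPM in KO libraries against 9.77, 8.98 and 10.5 CPM in WT libraries. Although these did not overlap, Srm did not pass (0.65 ± 0.26, 95% interval 0.10 to 1.21, edgeR adjusted p = 0.139). In Odc1, 42.2% of the transcript's 50-base words also occur in annotated transcripts of other genes, so its count is uncertain.

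Ifrd2, an interferon-related developmental regulator whose protein has been found on inactive ribosomes in rabbit, had the largest fold change of the 46. Its counts were 43, 125 and 217 in KO replicates 1, 2 and 3, against 33, 31 and 31 in WT replicates 1, 2 and 3. These correspond to 5.01, 12.9 and 18.5 CPM in KO libraries and 3.16, 3.57 and 3.66 CPM in WT libraries. KO replicate 1 lay close to WT, and KO replicate 3 was the highest. The log2 fold change of 1.82 ± 0.41 (edgeR adjusted p = 0.00846) lost its call without KO replicate 3 (1.38).

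**Figure D3:**
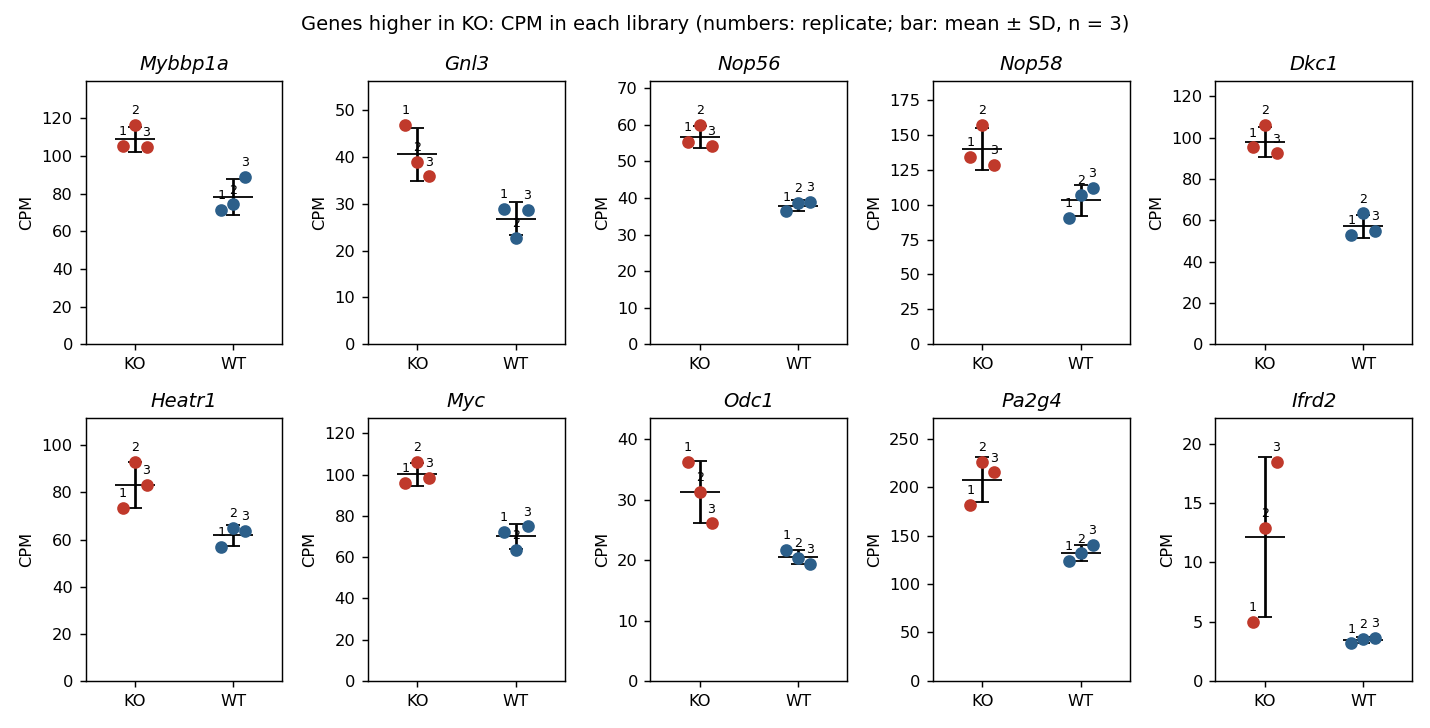
CPM of the 10 genes that were higher in KO, one panel per gene with its own vertical axis from 0, KO libraries at left and WT libraries at right (points numbered by replicate; bars are mean ± SD, n = 3). In each panel the lowest KO point is above the highest WT point; Ifrd2 has KO points from 5.01 to 18.5 CPM, while Nop56 has KO points from 54.3 to 60.0 CPM.

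Among the box H/ACA snoRNP proteins, which pseudouridylate ribosomal RNA, the dyskerin gene Dkc1, the catalytic subunit, was higher in KO. Dkc1 (chromosome X, positions 75095854 to 75109777, plus strand) had 95.3, 106 and 92.4 CPM in KO libraries against 52.8, 63.3 and 55.0 CPM in WT libraries. The lowest KO library lay well above the highest WT library, and the fold of the means was 1.72. Its log2 fold change was 0.78 ± 0.13 (edgeR adjusted p = 4.97e-04), and it passed under all 14 alternatives. Its partner genes Nhp2, with 17.7, 19.96 and 16.0 CPM in KO libraries against 13.2, 13.1 and 14.3 CPM in WT libraries, and Gar1, with 25.7, 32.7 and 37.5 CPM against 24.5, 22.9 and 27.1 CPM, did not pass (0.40 ± 0.22 and 0.37 ± 0.19). Nhp2 libraries did not overlap between the genotypes, and Gar1 libraries did. The 95% interval of the log2 fold change was -0.07 to 0.87 for Nhp2 and -0.02 to 0.76 for Gar1, and the difference from Dkc1 was not tested.

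In the box C/D snoRNP, which methylates ribosomal RNA, the paired core proteins Nop56 and Nop58 were both higher in KO. Nop56 had 55.4, 60.0 and 54.3 CPM in KO libraries against 36.3, 38.7 and 38.8 CPM in WT libraries, and the spread within each genotype was small beside the gap. Its log2 fold change was 0.58 ± 0.14 (edgeR adjusted p = 0.0135), a call lost without KO replicate 2 (0.53) or WT replicate 1 (0.55). Nop58 had 134, 157 and 128 CPM in KO libraries against 90.7, 107 and 112 CPM in WT libraries, without overlap. Its log2 fold change was 0.44 ± 0.12 (edgeR adjusted p = 0.0230), and it lost its call without KO replicate 2 (0.34), WT replicate 1 (0.35) or WT replicate 2 (0.47). Fbl, the methyltransferase of the complex, stood at 6.17, 5.69 and 5.37 CPM in KO libraries and 4.50, 3.68 and 5.78 CPM in WT libraries, and the genotypes overlapped (0.30 ± 0.39, edgeR adjusted p = 0.716). Of the 50-base words in its transcript, 73.0% occur in annotated transcripts of other genes, as do 37.6% of those of Nop56; these counts are uncertain. Rrp9, the U3 snoRNP protein, had 9.66, 4.45 and 8.19 CPM in KO libraries against 2.59, 5.07 and 8.85 CPM in WT libraries, overlapped, and did not pass (0.44 ± 0.44).

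Of the 6 genes of nucleolar scaffold and regulatory proteins 2 were higher in KO, against 5.09% of all tested genes. All 6 had a log2 fold change above 0 (0.06 to 0.59, median 0.33), against 50.1% of all tested genes. Mybbp1a, a Myb-binding repressor that also binds RNA polymerase I, had 105, 117 and 105 CPM in KO libraries against 71.5, 74.3 and 89.1 CPM in WT libraries. The lowest KO library was above the highest WT library, and the log2 fold change was 0.48 ± 0.12 (edgeR adjusted p = 0.0167). Its call was lost without KO replicate 2 (0.42), WT replicate 1 (0.42) or WT replicate 2 (0.44). Gnl3, the nucleostemin gene, a GTPase of proliferating and stem cells, had 46.9, 39.0 and 35.9 CPM in KO libraries against 29.0, 22.8 and 28.7 CPM in WT libraries, again without overlap. The log2 fold change was 0.59 ± 0.17 (edgeR adjusted p = 0.0370), and the call was lost without KO replicate 1 (0.48), KO replicate 2 (0.62), WT replicate 1 (0.66), WT replicate 2 (0.49) or WT replicate 3 (0.64).

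Neither Ncl nor Npm1, the genes of the abundant nucleolar proteins nucleolin and nucleophosmin, passed, and the difference between them was not tested. Ncl had 911, 1019.9 and 893 CPM in KO libraries against 822, 666 and 834 CPM in WT libraries, with every KO library above every WT library. It just missed the threshold (0.28 ± 0.09, edgeR adjusted p = 0.0503) and passed under 5 of the 14 alternatives, DESeq2 and limma-voom among them, and under 0 of the 6 that left out a library. Npm1 had 486, 555 and 415 CPM in KO libraries against 483, 403 and 512 CPM in WT libraries, with the genotypes overlapping (0.06 ± 0.11, 95% interval -0.16 to 0.28, edgeR adjusted p = 0.807), and 40.9% of its transcript's 50-base words occur in other genes, so its count is uncertain. Nolc1, a snoRNP chaperone, had 67.0, 73.9 and 56.1 CPM in KO libraries against 52.8, 42.3 and 58.5 CPM in WT libraries (0.36 ± 0.15), and the RNA helicase gene Ddx21 had 142, 174 and 167 CPM against 109, 137 and 149 CPM (0.29 ± 0.12). Neither passed, and in both the genotypes overlapped.

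Of the 6 RNA polymerase I genes, 0 passed the edgeR test and 0 passed with DESeq2 or limma-voom. An unadjusted p under 0.05 was found in 2 of the 6, against 22.3% of all tested genes in either direction, which is no result about so few genes. Polr1a, the largest subunit, had 76.2, 88.1 and 83.5 CPM in KO libraries against 60.7, 75.4 and 67.8 CPM in WT libraries (0.28 ± 0.13), just without overlap. Polr1c, a subunit shared with RNA polymerase III, had 34.5, 49.0 and 30.4 CPM in KO libraries against 22.9, 26.7 and 30.9 CPM in WT libraries (0.50 ± 0.20), and Polr1b, the second largest subunit, had a log2 fold change of 0.42 ± 0.37. The factors that bring the polymerase to its promoter had values near 0. Ubtf, the upstream binding factor gene, had 76.0, 108 and 89.1 CPM in KO libraries against 91.9, 93.0 and 89.9 CPM in WT libraries (-0.01 ± 0.13, 95% interval -0.28 to 0.26). Rrn3, the initiation factor TIF-IA, had 58.2, 59.6 and 54.9 CPM in KO libraries against 47.0, 55.8 and 66.6 CPM in WT libraries (0.03 ± 0.15, 95% interval -0.28 to 0.33). Tcof1, the treacle gene, had 93.4, 78.0 and 88.0 CPM in KO libraries against 106, 84.6 and 78.0 CPM in WT libraries (-0.05 ± 0.13, 95% interval -0.33 to 0.22). These 3 genes overlapped between the genotypes, and leaving out 1 library turned the sign of each.

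Counts under the symbol Rn45s, the locus of the 45S ribosomal RNA precursor, can also hold reads of the mature ribosomal RNAs within it, and no value here separates them from the precursor. Rn45s took 4.13%, 4.04% and 4.01% of the counts in KO replicates 1, 2 and 3, against 4.09%, 3.58% and 3.94% in WT replicates 1, 2 and 3. The genotypes overlapped, and Rn45s did not pass (0.04 ± 0.05, edgeR adjusted p = 0.726). Libraries were made from total RNA, and the sources used here do not say whether ribosomal RNA was depleted.

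In small-subunit processing, 1 of 9 genes was higher in KO, against 5.09% of all tested genes, which is no result about so few genes. All 9 had a log2 fold change above 0 (median 0.21), against 50.1% of all tested genes. Heatr1, the UTP10 homologue of the early processome, had 73.6, 93.1 and 83.3 CPM in KO libraries against 56.8, 64.8 and 63.7 CPM in WT libraries, without overlap. Its log2 fold change was 0.43 ± 0.13 (edgeR adjusted p = 0.0420), and it lost its call with upper-quartile factors (0.41). The call was also lost without KO replicate 2 (0.34), KO replicate 3 (0.44), WT replicate 1 (0.38), WT replicate 2 (0.47) or WT replicate 3 (0.46). The other 8 had log2 fold changes from 0.05 (Rrp12) to 0.37 (Utp20). Utp20 had 70.3, 83.6 and 66.4 CPM in KO libraries against 50.5, 67.4 and 52.8 CPM in WT libraries (0.37 ± 0.14, edgeR adjusted p = 0.128), so that 1 WT library lay above the lowest KO library. Wdr75 (0.23 ± 0.15), Utp15 (0.24 ± 0.15) and Wdr43 (0.21 ± 0.12), of the same early complex, did not pass, nor did Nop14 (0.08 ± 0.15), Noc4l (0.11 ± 0.34), the helicase gene Ddx10 (0.09 ± 0.13) or the export factor gene Rrp12 (0.05 ± 0.27).

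In large-subunit processing 0 of 13 genes passed the edgeR test and 0 passed with DESeq2 or limma-voom. An unadjusted p under 0.05 was found in 3 of the 13, a share near the 22.3% of all tested genes, which counts both directions. All 13 had a log2 fold change above 0 (0.02 to 0.54, median 0.34), against 50.1% of all tested genes. Nop2, an RNA methyltransferase gene, had 25.7, 34.3 and 44.1 CPM in KO libraries against 20.9, 29.1 and 22.1 CPM in WT libraries (0.54 ± 0.21, edgeR adjusted p = 0.123). Noc3l had 36.2, 46.2 and 53.6 CPM in KO libraries against 34.1, 33.4 and 33.3 CPM in WT libraries (0.44 ± 0.16, edgeR adjusted p = 0.112). KO replicate 1 was the lowest KO library in both, and both passed without it (0.71 and 0.58). Nop16, a Myc target in human cells, had 19.1, 20.7 and 15.3 CPM in KO libraries against 13.8, 11.3 and 12.7 CPM in WT libraries (0.54 ± 0.23, edgeR adjusted p = 0.175), without overlap. The 3 genes of the PeBoW complex, needed for maturation of the large subunit, were Bop1 (0.42 ± 0.22), Pes1 (0.18 ± 0.16) and Wdr12 (0.16 ± 0.22); KO libraries ran from 20.7 to 26.4 CPM for Bop1 and WT libraries from 13.6 to 22.1 CPM. Noc2l (0.02 ± 0.14) shares 20.9% of its exon bases with Samd11 on the other strand, and how the counting used strand is not known, so its count is uncertain. The remaining genes were Rrp1b (0.37 ± 0.20), Nip7 (0.36 ± 0.20), the helicase gene Ddx18 (0.34 ± 0.23), Ftsj3 (0.21 ± 0.14), Ebna1bp2 (0.21 ± 0.16) and Rrs1 (0.20 ± 0.27), and 62.7% of the 50-base words of Ddx18, and 25.1% of those of Pes1, occur in other genes, so these counts are uncertain too.

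The error of the fold change differed with the level of the gene. Among the 20 genes with a mean of 50 CPM or more over all libraries 6 were higher in KO, against 8.66% of all tested genes at that level, and their median SE was 0.13. Of the 15 genes from 20 to under 50 CPM 3 were higher, against 6.04% of all tested genes, with a median SE of 0.19. Of the 11 genes under 20 CPM 1 was higher, against 1.91% of all tested genes, with a median SE of 0.27. Median log2 fold changes at these levels were 0.28, 0.37 and 0.40.

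KO replicate 2 stood apart from the other KO libraries over these genes. It was the highest of all 6 libraries for 28 of the 46 genes, and the median of log2(CPM + 1) minus the gene's WT mean was 0.25, 0.51 and 0.25 in KO replicates 1, 2 and 3, against -0.06, 0.00 and 0.08 in WT replicates 1, 2 and 3. The lowest library was WT replicate 1 for 21 genes and WT replicate 2 for 15. Proliferation markers differed between the genotypes too: all 15 were higher in KO (median log2 fold change 1.0), and their summed level was 3223, 3857 and 3484 CPM in KO replicates 1, 2 and 3, against 1926, 1671 and 1804 CPM in WT replicates 1, 2 and 3. KO replicate 2 was the highest library for both lists, by median and by sum. Within WT the order depended on the measure. By list median, WT replicate 1 was the lowest WT library for the 46 genes (-0.06) and the highest for the proliferation markers (0.05). By summed CPM, WT replicate 2 was the lowest for both (2986 and 1671 CPM). The highest sum was in WT replicate 3 for the 46 genes (3349 CPM) and in WT replicate 1 for the proliferation markers (1926 CPM). Mki67, which marks cycling cells, had 1502, 1779 and 1643 CPM in KO libraries against 908, 753 and 807 CPM in WT libraries (1.0 ± 0.08, edgeR adjusted p = 1.57e-06). All 14 red pulp macrophage markers were lower in KO (median -1.85), with sums of 453, 287 and 304 CPM in KO replicates 1, 2 and 3, against 1249, 947 and 794 CPM in WT replicates 1, 2 and 3. The part of either marker list in the values of the 46 genes was not tested. Of the other marker lists, that of monocytes had 2 genes lower in KO (Csf1r and Plac8). Those of B, T and plasma cells, neutrophils, erythroid cells, cDC1s and plasmacytoid cells had 0 genes past the edgeR test, with 1 plasma cell gene at an unadjusted p under 0.05. Only 2 T cell, 1 neutrophil and 1 erythroid gene were tested, so 0 there says little. KO replicate 1 had the highest sum of all 6 libraries for T cells, neutrophils, cDC1s and plasmacytoid cells. It was not the highest for monocytes, B cells, plasma cells or erythroid cells. The cDC1 sums were 189, 92 and 93 CPM in KO replicates 1, 2 and 3, against 162, 132 and 107 CPM in WT libraries. The part of these lists in the 46 genes was not tested.

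**Figure D4:**
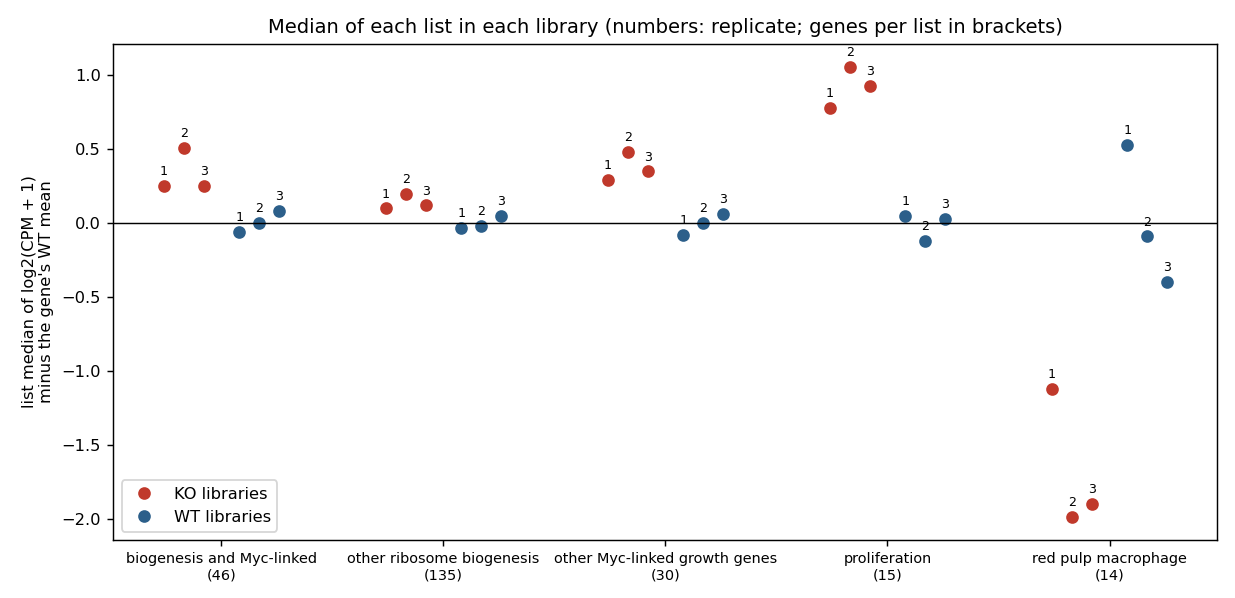
Median over the genes of each list of log2(CPM + 1) minus the gene's WT mean (vertical axis), in each KO library (red) and WT library (blue), numbered by replicate. KO replicate 2 is the highest library for the 46 genes (0.51), the other ribosome biogenesis genes (0.20), the other Myc-linked growth genes (0.48) and the proliferation markers (1.06), and KO replicate 2 is the lowest for the red pulp macrophage markers (-1.99).

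Other genes of the pathway, outside the 46, were read in the same fit. Of 135 other ribosome biogenesis genes 5 were higher in KO and 0 lower, a share near the 5.09% of all tested genes. An unadjusted p under 0.05 was found in 20 of the 135, a smaller share than the 22.3% of all tested genes in either direction. Most of these 20 lay above 0, and no share in 1 direction was counted over all tested genes. Over the 135, the median log2 fold change was 0.16, and 104 were above 0. The 5 were Wdr46 (0.81 ± 0.19) and Nol10 (0.54 ± 0.17, just under the threshold) of the small-subunit processome, Urb2 (0.64 ± 0.16) and Rsl1d1 (0.44 ± 0.11) of large-subunit processing, and the snoRNP assembly ATPase gene Ruvbl2 (0.51 ± 0.14). Wdr46 lost its call without KO replicate 2 (0.71) or WT replicate 1 (0.62), Urb2 without WT replicate 1 (0.62) or WT replicate 2 (0.59), and Rsl1d1 without KO replicate 2 (0.41), KO replicate 3 (0.40), WT replicate 2 (0.44) or WT replicate 3 (0.39). Ruvbl2 (0.43 to 0.55) and Nol10 (0.42 to 0.63) lost theirs without any library other than KO replicate 1. The count of 5 dropped to 1 without KO replicate 2, WT replicate 1 or WT replicate 2 and to 2 without KO replicate 3 or WT replicate 3, and was 8 with DESeq2 or without scaling factors. The count of 0 lower became 1 with DESeq2, limma-voom, upper-quartile factors or the filter of 5 CPM. That gene was Cebpz, named after its values were seen, with 140, 142 and 119 CPM in KO libraries against 153, 176 and 179 CPM in WT libraries (-0.34 ± 0.11, edgeR adjusted p = 0.0508). Of 40 small-subunit genes 2 were higher, of 45 large-subunit genes 2 and of 12 snoRNP and assembly genes 1, while 0 of 15 RNA polymerase I genes, 0 of 14 RNA exosome genes and 0 of 9 RNase P and MRP genes passed. At an unadjusted p under 0.05 these last 3 lists had 1, 3 and 1 genes, all with a log2 fold change above 0. The 22.3% of all tested genes counts both directions. With DESeq2 these 3 lists had 0 genes past the threshold. The RNA exosome list had a median log2 fold change of 0.29, with 12 of 14 above 0, against 50.1% of all tested genes. In 4 of its 14 genes every KO library lay above every WT library, against 13.7% of all tested genes. The medians of the RNA polymerase I and the RNase P and MRP lists were 0.09 and 0.04.

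The network of Myc and Max had a median log2 fold change of -0.02, with 6 of 14 tested genes above 0. Of these 14, 1 was higher in KO, against 5.09% of all tested genes. It was C330027C09Rik (Cip2a in RefSeq, an inhibitor of the phosphatase PP2A that stabilises Myc protein in human cells), with 62.2, 74.4 and 54.1 CPM in KO libraries against 26.0, 20.7 and 19.8 CPM in WT libraries (1.51 ± 0.17, edgeR adjusted p = 2.08e-05). KO libraries were all more than 50 CPM and WT libraries all at or below 26.0 CPM. Max had 207, 245 and 240 CPM in KO libraries against 197, 211 and 225 CPM in WT libraries (0.13 ± 0.10), overlapped between the genotypes and did not pass. Of 13 other polyamine genes 2 were higher, with a median of 0.00 and 7 above 0. The 2 were Eif5a (0.62 ± 0.11, edgeR adjusted p = 0.00114), whose protein carries the spermidine-derived residue hypusine, and the antizyme inhibitor gene Azin1 (0.37 ± 0.11, edgeR adjusted p = 0.0449). The Azin1 call was lost without any single library (0.28 to 0.44). Over all tested genes 5.09% were higher, 4.58% lower and 50.1% above 0. Of 30 other growth genes linked to Myc 12 were higher and 1 was lower, with a median of 0.43 and 28 above 0. The 4 with the smallest p were the leucine transporter gene Slc7a5 (1.02 ± 0.17), the cyclin gene Ccnd2, which was lower in KO (-0.91 ± 0.15), Set (0.49 ± 0.11) and the mitochondrial chaperone gene Hspd1 (0.68 ± 0.15), which lost its call without KO replicate 2 (0.46). The count of 12 dropped to 3 without KO replicate 2, to 7 without WT replicate 1 or WT replicate 2, and to 6 without WT replicate 3.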

How the data were processed

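Gene expression was measured by RNA sequencing in 6 libraries of splenic cDC2s, 3 KO and 3 WT, grouped by the titles in the labels. The authors deposited 1 table of raw counts by gene symbol, without normalization. STAR, HTSeq, DESeq2 and the build mm10 are named in the submitters' processing notes, without versions, annotation or strand setting. Total counts were 8408325 to 11714365 per library, which limits the genes under 20 CPM most.

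The test was that of edgeR 4.0.16 (R 4.3.3): filterByExpr, TMM factors (0.977 to 1.02), a quasi-likelihood fit with genotype as its term on all 6 libraries, and Benjamini-Hochberg adjustment over 11504 genes at a threshold of 0.05. CPM use the TMM-scaled library sizes, and each SE was derived from the F statistic. "Higher", "lower" and "passed" refer to this test. The fit was tested on simulated data first.

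The 46 genes, the other lists and the alternatives were chosen with earlier results of these data known. All 46 genes are named, and up to 4 genes with the smallest p from each other list. Of 277 other entries 266 were in the table. Gene positions, exon sharing and 50-base words shared with other genes' transcripts (the longest principal transcript of each gene) came from GENCODE M21, on mm10, and promoters from RefSeq (GRCm38.p6). Alternatives were RLE and upper-quartile factors, no scaling factors, no filter, 5 CPM in at least 3 libraries, DESeq2 1.42.0, limma-voom (limma 3.58.1), a block for the replicate number, and fits without each single library.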

Additional observations from a re-analysis of the deposited data

How the results depend on the processing

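The count of 10 genes of the 46 that were higher in KO was 8 to 11 under the other normalizations, filters and tests, and 4 to 10 when 1 library was left out. The count of 0 lower genes and the direction of the median held under all 14 alternatives (0.27 to 0.39). Over all tested genes, leaving out 1 library gave 310 to 583 higher and 264 to 489 lower genes, against 586 and 527; upper-quartile factors gave 500 and 583, and no scaling factors 692 and 431. Dkc1 and Pa2g4 kept their calls under all alternatives, and Odc1 was also lost with upper-quartile factors, with no filter, with limma-voom and with the replicate block. Over the 46 genes, 584 of 644 values kept their direction and their side of the threshold, 30 lost and 7 gained a call, and 23 changed sign. All sign changes were in genes that did not pass: Ubtf without scaling factors (0.02), Noc2l with upper-quartile factors (-0.00), and, when 1 library was left out, Npm1 (-0.05 to 0.16), Ubtf (-0.15 to 0.11), Rrn3 (-0.09 to 0.16), Tcof1 (-0.14 to 0.09), Nop14 (-0.01 to 0.20), Noc4l (-0.39 to 0.35), Ddx10 (-0.00 to 0.16), Rrp12 (-0.10 to 0.17), Wdr12 (-0.02 to 0.38), Noc2l (-0.01 to 0.09) and Rrs1 (-0.06 to 0.33). Outside the 46, Rn45s also changed sign when 1 library was left out (-0.02 to 0.09). The cause of these changes was not tested. Same-numbered KO and WT libraries did not deviate together (correlations of 0.04, -0.03 and -0.03 for replicates 1, 2 and 3). With so few libraries this cannot exclude that they were prepared together. With the replicate number as a block, 9 of the 46 genes were higher, and 496 higher and 449 lower over all genes.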
